A study of Homo sapiens with 8 samples.

Results

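Both strands of miR-140 were transfected separately into T24 cells, a line from a bladder cancer, and the RNA of the miR-140-5p transfectants was compared directly with that of the miR-140-3p transfectants. The comparison took 2 of the 8 two-colour arrays of the series. On each, Cy5 carried RNA of cells given a miRNA strand with Lipofectamine RNAiMAX, and Cy3 carried RNA of T24 mock cells, which the labels describe as not transfected. No time after transfection, dose or control miRNA is given in the labels. Each strand had 1 array, so no test was possible and no value below has a replicate. Of 43317 genes on the array, 20120 had a probe well above background in Cy5 on both arrays, and these were compared. Because both sides of the comparison carried the same dye, the brightness that a probe owes to its dye cancels.

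A pre-miRNA hairpin is cut into a duplex, and either strand can be loaded into the RNA-induced silencing complex, where its seed, the bases 2 to 8 from the 5′ end, pairs with target transcripts and lowers their level or translation. The strands of a duplex face each other and therefore carry different seeds. miR-140 is known above all from cartilage, and its precursor lies within WWP2, a ubiquitin ligase gene, on chromosome 16. In the RefSeq tables for GRCh38.p14, miR-140-5p occupies chr16:69933103-69933124 and miR-140-3p chr16:69933142-69933162, both on the plus strand. The mature sequences are shown because the whole comparison is between them, with the seeds in capitals.
miR-140-5p: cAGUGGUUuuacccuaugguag
miR-140-3p: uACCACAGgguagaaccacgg
A transcript that pairs with all of the miR-140-5p seed holds AACCACT, and one that pairs with the miR-140-3p seed holds CTGTGGT. These are different words, so a gene can match either strand without matching the other. WWP2 itself gave a Cy5 signal of 91.1 after the 5p strand and 137.6 after the 3p strand, a log2 difference of −0.41.

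The transfectants differed from each other far more than the mocks did. A signal here is the mean spot intensity less the local background, and a difference is the log2 signal with miR-140-5p minus that with miR-140-3p after quantile normalization between the arrays, while the signals printed are those before it. With miR-140-5p, 315 genes (1.57% of those compared) were lower by 1.0 or more on the log2 scale and 307 genes (1.53%) were higher by as much. The same subtraction between both mock channels, over the 17020 genes whose mocks were well above background, put 1 gene lower and 1 gene higher (0.00588% each). Over these genes the SD of the difference was 0.424 in Cy5 and 0.152 between the mocks. The deposited files number the mock RNA of both arrays alike, and the labels do not say whether it was 1 RNA. If it was, the mock check covers labelling, hybridisation and scanning alone. The spread between separate transfected cultures was not measured. In RNA of whole cultures, more cells with a transcript and more transcript per cell cannot be told apart.

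**Figure D1:**
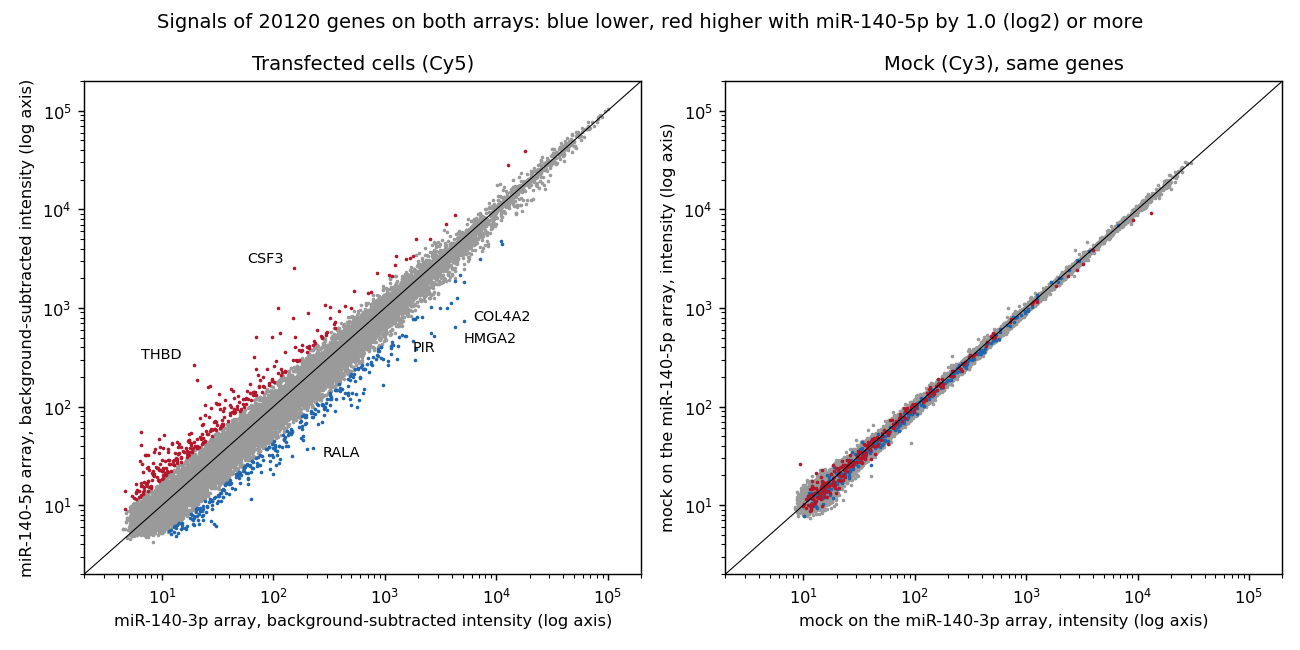
Background-subtracted intensity of each gene on the miR-140-5p array (y axis, log) against the miR-140-3p array (x axis, log), in Cy5 of the transfectants (left) and in Cy3 of the mocks (right); blue points are the 315 genes lower and red points the 307 genes higher with miR-140-5p by 1.0 or more on the log2 scale, and the line marks equal signal. The coloured genes leave the line in Cy5 and lie along it in the mocks.

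The gap between strands and mocks held at every brightness. Among genes with a signal of at least 1000, the SD was 0.33 in Cy5 and 0.073 in the mocks, and 20 genes were lower and 16 higher. Among those under 20, the SD was 0.442 in Cy5 over 5005 genes. In the mocks it was 0.245 over the 1927 of them whose mocks were well above background, so these SDs are not over the same genes. Of the 299 lower and 262 higher genes with mocks above background, 3 had a mock difference of over 0.5 times their Cy5 difference, namely CDH15, ARHGAP40 and IZUMO4. These 3 stay in the counts of lower and higher genes. The size of the counts depended on the processing: normexp with an offset of 50 gave 88 lower and 62 higher genes, the scanner software's processed signal 339 and 331, and the difference of its ratios to mock 759 and 728. No spot was saturated on either array, and precision is limited by there being 1 array a strand.

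COL4A2, HMGA2 and NCEH1 stood lowest with miR-140-5p. COL4A2, a chain of type IV collagen in basement membranes, read 745.7 in Cy5 for miR-140-5p and 5109 for miR-140-3p, while its mocks read 1995 and 2056. The Cy5 difference was −2.62, which is 6.13-fold, at chr13:111165261-111165320 of GRCh37, the build of the array files. HMGA2, an architectural chromatin protein of embryonic and tumour cells, read 647.3 and 4237 against mocks of 810.1 and 769.0, a difference of −2.57 at chr12:66359789-66359848. Its 3 probes did not give like values, with −0.84 and −0.22 at the others, which belong to other transcripts of the gene. NCEH1, a hydrolase of cholesterol esters, read 293.7 and 1873 with mocks of 808.8 and 820.3, a difference of −2.51 at chr3:172348576-172348635. The mocks of all 3 genes differed by 0.11 or less.

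**Figure D2:**
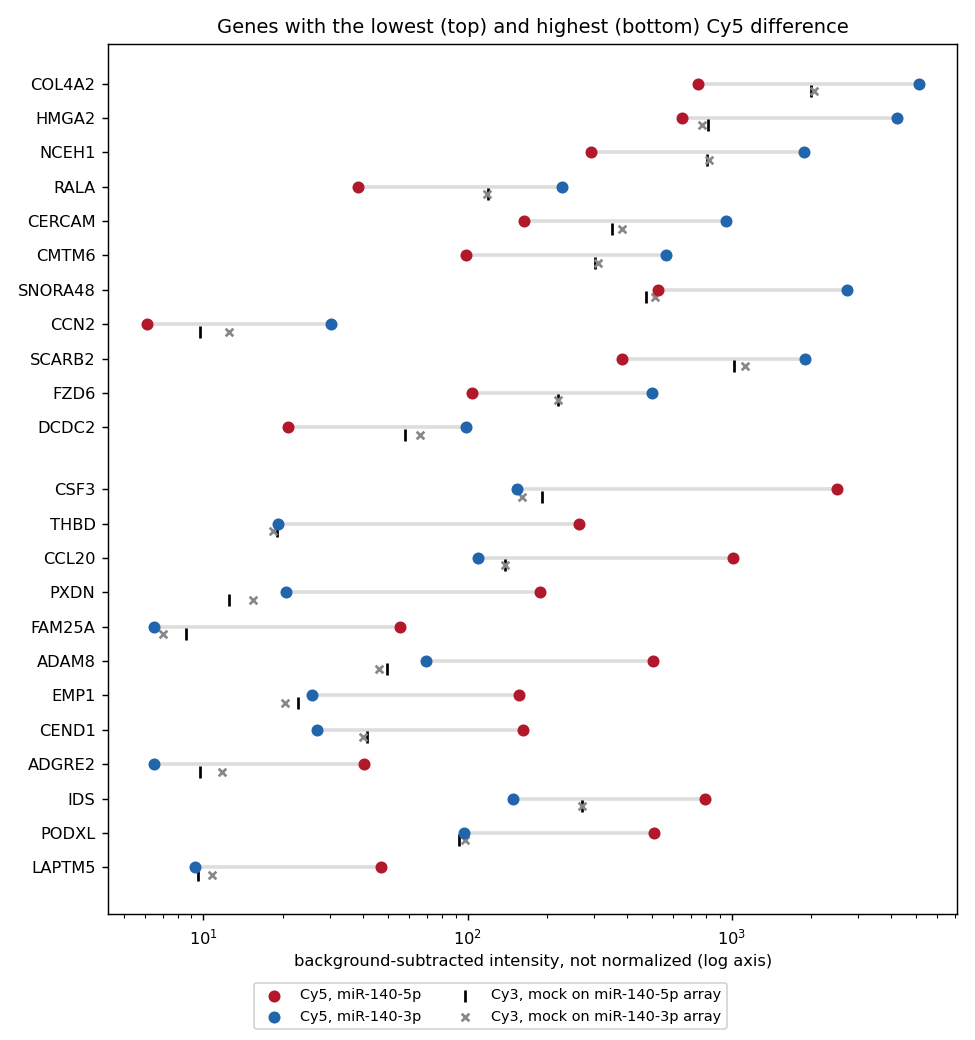
Background-subtracted intensity, not normalized (x axis, log), of genes with the lowest and the highest Cy5 differences; red and blue points are the Cy5 signals with miR-140-5p and miR-140-3p, and the small marks below them are the Cy3 signals of both mocks. The mocks of a gene lie close together where the Cy5 signals lie apart, as for COL4A2 at 745.7 and 5109 against 1995 and 2056.

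The other genes at the low end held several with roles at the cell surface or in membranes. CMTM6, a membrane protein that stabilises PD-L1, read 98.6 for miR-140-5p and 566.0 for miR-140-3p, a difference of −2.36 with mocks of 302.4 and 310.9. SCARB2, a lysosomal membrane receptor that carries glucocerebrosidase to lysosomes, read 385.2 and 1892, a difference of −2.13. FZD6, a Frizzled receptor for Wnt ligands, read 104.0 and 496.8, a difference of −2.09. CERCAM read 163.6 and 952.1, a difference of −2.36 that its other probe, at −0.60, did not share. In all of these the miR-140-5p signal was the lower and the mocks differed by 0.11 or less. CCN2, a secreted matricellular protein also known as CTGF, and DCDC2 were at −2.22 and −2.08, but CCN2 was dim at 6.1 and 30.3, and both fell short of 1.0 with normexp and an offset of 50.

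CSF3 and THBD stood highest with miR-140-5p. CSF3, the cytokine G-CSF that drives neutrophil production, read 2513 in Cy5 for miR-140-5p and 153.6 for miR-140-3p, against mocks of 190.9 and 161.3. The difference was 4.19, which is 18.2-fold, at chr17:38173710-38173769, and its second probe gave 4.22 from 244.1 and 14.5. THBD, the thrombin receptor thrombomodulin, read 265.1 and 19.2 with mocks of 18.9 and 18.3, a difference of 3.94 at chr20:23026807-23026866. CCL20, a chemokine for cells with the receptor CCR6, read 1009 and 109.9 with mocks of 139.1 and 138.3, a difference of 3.37. For all 3 genes the miR-140-3p signal was the low one and the mocks differed by 0.29 or less.

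PXDN, a peroxidase that crosslinks type IV collagen, read 187.6 and 20.6, a difference of 3.35, with 3.21 at its second probe. ADAM8, a membrane-bound metalloprotease, read 502.2 and 69.4, a difference of 3.01, but a dim probe for another transcript gave 0.30. EMP1 and PODXL, both membrane proteins of epithelial cells, were higher by 2.77 and 2.55, and CEND1 by 2.76. IDS, the lysosomal enzyme iduronate 2-sulfatase, read 794.4 and 148.6, a difference of 2.60, and its 4 probes ran from 0.60 to 2.60. All of these read higher with miR-140-5p. FAM25A, ADGRE2 and LAPTM5 were at 3.20, 2.74 and 2.47 from miR-140-3p signals of 6.5, 6.5 and 9.3, and all 3 fell short of 1.0 with normexp and an offset of 50.

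A gene seen on 1 of the arrays only has a lower bound in place of a difference. Of the 684 genes seen with miR-140-5p alone, 74 were past 1.0 on the log2 scale by this bound, towards higher signal in the miR-140-5p transfectants. Of the 1067 seen with miR-140-3p alone, 78 were past it towards lower. MMP1, the interstitial collagenase, read 116.9 with miR-140-5p and was not well above background with miR-140-3p, which makes it at least 25.9-fold higher on the normalized scale used for all bounds. MMP3, stromelysin, and PTGS2, the inducible cyclooxygenase, were at least 6.82-fold and 6.55-fold higher. LIPC, hepatic lipase, was the reverse, at least 8.11-fold lower. The mocks of these 4 genes were dim, between 4.0 and 17.0. They were named after their values had been seen.

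A direct difference does not say on which array a gene moved against mock, so the ratio of Cy5 to Cy3 on each array was also read. From it the median ratio of the same probe on the 6 arrays of other treatments was taken off. This median stands for the probe's dye effect, but it can also hold effects of those treatments. Because an offset of 50 was added to both channels before this ratio, it understates dim genes. The mocks are described as not transfected, and no control miRNA is given. A ratio to mock therefore also holds any effect of transfection itself. Of the 299 lower genes with measured mocks, 243 lay further from 0 on the miR-140-5p array and 56 on the miR-140-3p array, with median ratios of −0.45 and 0.11. Of the 262 higher genes the corresponding numbers were 150 and 112, with medians of 0.28 and −0.19. These counts compare size alone, whatever the sign. The ratios on both arrays had opposite signs in 209 of the lower and 212 of the higher genes.

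**Figure D3:**
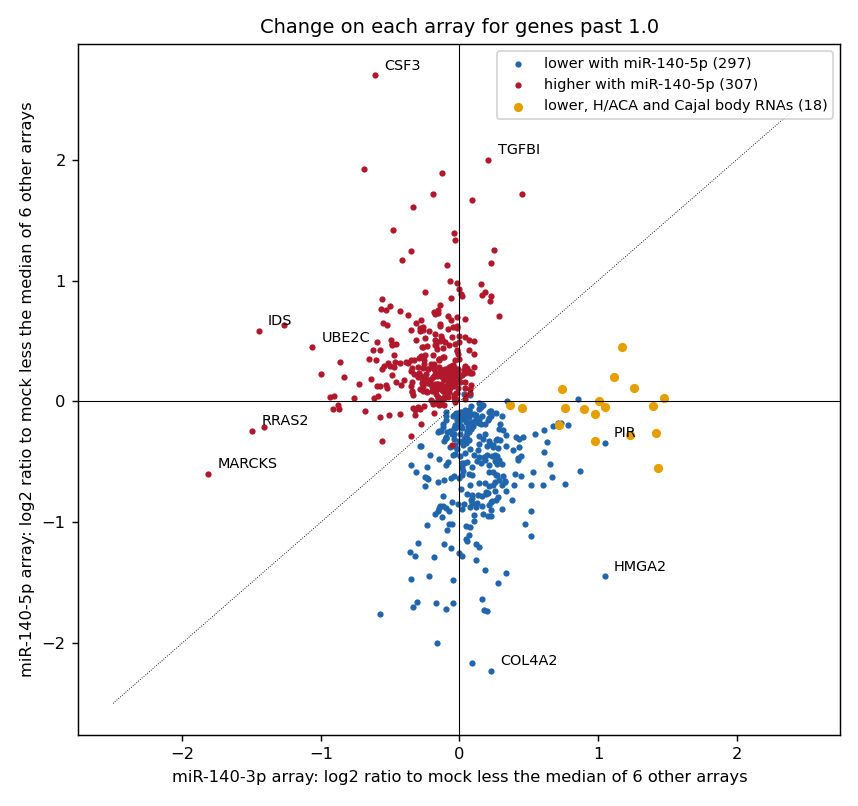
Log2 ratio to mock less the median of the 6 other arrays, on the miR-140-5p array (y axis) and the miR-140-3p array (x axis), for genes past 1.0 in the Cy5 difference; blue genes were lower, red genes higher with miR-140-5p, and orange points are the 18 H/ACA and Cajal body RNAs among the lower genes. COL4A2 and CSF3 lie along the miR-140-5p axis, MARCKS, RRAS2 and the orange points along the miR-140-3p axis, and HMGA2 and PIR in the lower right with values on both.

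COL4A2 moved on the miR-140-5p array, with a ratio of −2.23 against 0.23 on the other. NCEH1 at −2.17 and 0.09 and CSF3 at 2.70 and −0.61 were alike in this. MARCKS, a substrate of protein kinase C that binds actin and membranes, belonged to the genes that moved on the miR-140-3p array, at −0.60 on the miR-140-5p array and −1.81 on the other. Its Cy5 signals of 2701 and 1240 made it higher with miR-140-5p by 1.25. RRAS2, a RAS-related GTPase, was at −0.24 and −1.49, and its Cy5 difference was 1.49 at 1 probe and 1.54 at the other. IDS was at 0.59 and −1.45, and UBE2C, the ubiquitin-conjugating enzyme of the anaphase-promoting complex, at 0.45 and −1.06. A positive difference in these 4 genes therefore went with a ratio to mock below 0 on the miR-140-3p array.

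HMGA2 had ratios of opposite sign, −1.45 on the miR-140-5p array and 1.05 on the other. PIR, pirin, an iron-binding nuclear protein, read 518.7 in Cy5 for miR-140-5p and 1517 for miR-140-3p, against mocks of 547.4 and 515.1. The Cy5 difference was −1.41. The ratios were −0.34 on the miR-140-5p array and 1.05 on the miR-140-3p array, with the other arrays' median of −0.39 taken off. Without that step they were −0.73 and 0.66, so which array held the larger part depended on it. PIR was above mock on the miR-140-3p array and below it on the miR-140-5p array either way. The other arrays include cells given bisamide, which the paper reports to lower PIR mRNA. Whether their median is a dye effect for PIR was not tested. The Cy5 difference of PIR stayed between −1.53 and −1.33 under the 12 other settings tried.

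Genes already reported as targets of either strand were read next. The list for miR-140-5p had 20 measured members, of which 4 (RALA, FZD6, SEPTIN2 and MMD) were lower by 1.0 or more and none was higher, against 1.57% and 1.53% over all genes. The median difference was −0.31, against 0.009 over all genes. RALA, a small GTPase of the RAS family that acts in exocytosis, read 38.4 for miR-140-5p and 227.4 for miR-140-3p, with mocks of 119.4 and 118.3 and a difference of −2.39. SEPTIN2, a cytoskeletal GTPase, read 458.8 and 1789, a difference of −1.82, but its other probes gave −0.59 and 0.13, and the mean over its 3 probes was −0.76. MMD, a membrane protein named here after its value was seen, read 68.4 and 195.1, a difference of −1.32.

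Other listed miR-140-5p targets were closer together. SMURF1, FLOT2 and HDAC7 lay at −0.84, −0.76 and −0.64. SMAD3, SOX9, IGF1R and TGFBR1 lay at −0.18, −0.17, −0.04 and 0.12. VEGFA, the endothelial growth factor, was on the other side at 0.90. The list for miR-140-3p had 5 measured members, none past 1.0, with a median of 0.17 that became −0.06 when only signals of at least 100 were kept. The most different of them was ATP6AP2, the prorenin receptor and a part of the proton pump, with 1224 and 780.0 in Cy5, a difference of 0.81 and ratios of −0.10 and −0.84. Both lists were written from general knowledge of such reports, but with earlier results of these data known. The counts in these lists and in those below therefore describe the listed genes and do not test for an excess over all genes.

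Matches to the seeds were sought within the 60-base probes themselves, since no whole transcripts were searched here. The probe sequences read as the transcript: the polyadenylation signal AATAAA was in 4567 of 58201 probes and its reverse complement in 2096. Among genes whose probe held AACCACT and not CTGTGGT, 83 in number, the median difference was −0.12, with 4 (4.82%) lower and 2 (2.41%) higher by 1.0 or more, and 59.0% lay below 0. Among the 141 genes with CTGTGGT only, the median was 0.09, with none lower and 2 (1.42%) higher, and 39.7% lay below 0. Genes with neither word had a median of 0.01 and 48.8% below 0. The difference between mocks had medians of −0.04, 0.02 and 0.00 in these groups.

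**Figure D4:**
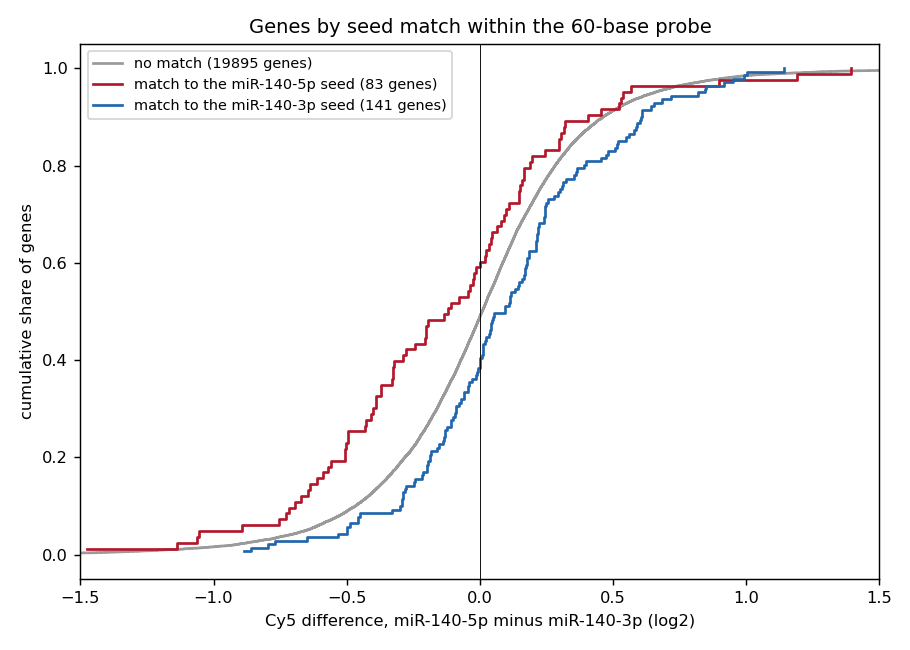
Cumulative share of genes (y axis) by Cy5 difference on the log2 scale (x axis), for 83 genes whose 60-base probe matched the miR-140-5p seed, 141 that matched the miR-140-3p seed and 19895 that matched neither. The medians were −0.12 for the miR-140-5p matches, 0.09 for the miR-140-3p matches and 0.01 for neither.

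The matched stretches are shown for genes that passed 1.0 in the direction of the matching strand, as they stand in the probe, with the match in capitals. ABCA1, ATP6V1E2, DOK4 and STOX1 match miR-140-5p, and SLC6A13 miR-140-3p.
ABCA1: tcatgtaatactgAACCACTt
ATP6V1E2: gaagctagtgttgAACCACTa
DOK4: ccttcttgtaaatAACCACTa
STOX1: agtcAACCACTc
SLC6A13: taaccaaactgttCTGTGGTc
ABCA1, the exporter of cholesterol to apolipoprotein A1, read 11.1 for miR-140-5p and 33.7 for miR-140-3p, a difference of −1.48 with mocks of 24.2 and 27.3. Its probe lies at chr9:107543704-107543763 on the minus strand. ATP6V1E2, a subunit of the proton pump, was at −1.14, DOK4, a docking protein below receptor tyrosine kinases, at −1.06, and STOX1 at −1.05. SLC6A13, a transporter of GABA, was dim at 18.7 and 10.1 and only just past the threshold. A match is a description and not a bound site, and 2 genes with a miR-140-5p match passed 1.0 in the other direction.

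Several cytokine genes were higher with miR-140-5p. Of 19 measured members of a list of inflammatory cytokines and NF-kB targets, 6 were higher by 1.0 or more and none was lower, against 1.53% and 1.57% over all genes, with a median of 0.43 and 5 members below 0. Besides CSF3 and CCL20 these were IL11, IL1B, CXCL2 and CXCL1, the last 3 named after their values were seen. IL11, a cytokine of the interleukin-6 family, read 133.4 and 32.7, a difference of 2.20, and IL1B, a central mediator of inflammation, 25.9 and 6.6, a difference of 2.06 from a dim probe whose mocks were not both above background. CXCL1, a neutrophil chemokine, read 39296 and 17928 in Cy5, but its mocks read 9282 and 13150, so that a difference of 1.11 stood beside a mock difference of −0.48 in the other direction. CXCL2 read 7129 and 3537, a difference of 1.12 with a mock difference of −0.21.

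The other measured members of the list did not pass 1.0. These counts leave out genes seen on 1 array only. Of those, CCL2, named after its value was seen, was at least 3.62-fold lower with miR-140-5p. Its Cy5 signals were dim at 5.1 and 19.4. PTGS2, as given above, was at least 6.55-fold higher. IL6 read 847.9 and 701.9, a difference of 0.43, and its ratios to mock were below 0 on both arrays, at −0.71 and −1.21. The NF-kB subunits and targets RELB, NFKB2, ICAM1 and BIRC3 lay between −0.20 and −0.10, and TNF at −0.30. CXCL8 and CXCL3, both at 0.95, were just under the threshold. The ratios to mock put CSF3 and CCL20 mainly on the miR-140-5p array, at 2.70 and 1.93, and CXCL2 mainly on the miR-140-3p array.

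Promoters of these cytokines were read for the NF-kB word GGGNNTTTCC on both strands, within 250 bases before to 50 after the start in RefSeq's GRCh38.p14 table. The word was in 3 of 5 of the higher list members with a promoter entry and in 9 of 16 of all measured members, against 242 of 11443 (2.11%) of all measured genes. Among all genes higher with miR-140-5p it was in 7 of 179 (3.91%), and among all lower genes in 4 of 205 (1.95%). The AP-1 word TGANTCA was in 12 of 179 (6.70%) and 14 of 205 (6.83%), against 4.82% of measured genes. The list was written with NF-kB targets in mind, so the word's frequency in it is no finding. The matches, in capitals, are shown for the members that were higher.
CCL20: atcaatggGGAAAACCCCatgtggca
CXCL1: ggaactccGGGAATTTCCctggcccg
CXCL2: ggagctccGGGAATTTCCctggcccg
IL11 (AP-1): agggagggTGAGTCAggatgtgt
The stretches shown for CXCL1 and CXCL2 lie at chr4:73869306-73869331 and chr4:74099256-74099281 of GRCh38.p14, before the starts of these genes. The Cy5 differences of CXCL1 and CXCL2 were 1.11 and 1.12.

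**Figure D5:**
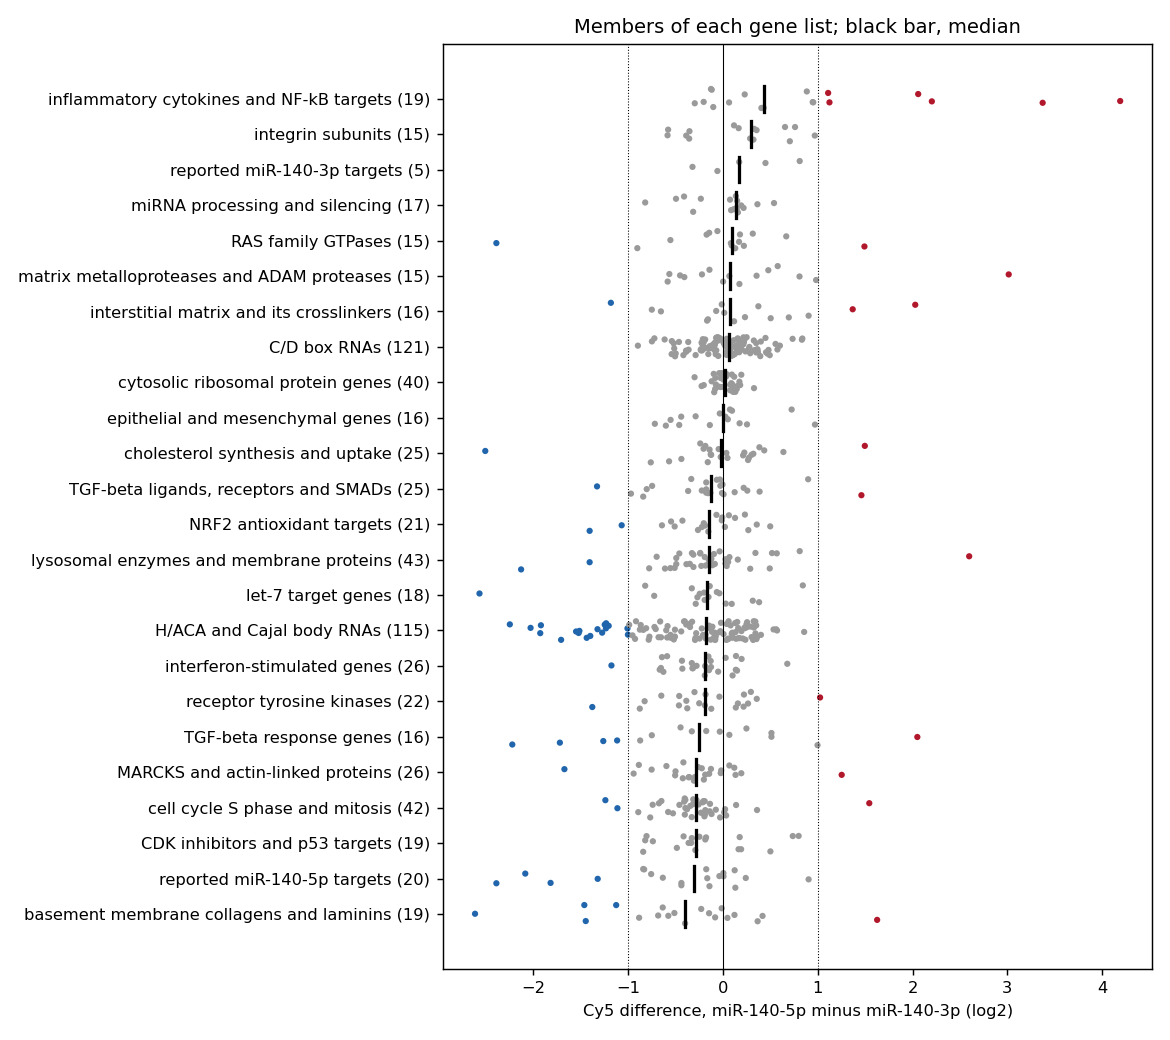
Cy5 difference on the log2 scale (x axis) of each measured member of the 24 gene lists, with the number of members in brackets and a black bar at the median; blue points are at −1.0 or below, red points at 1.0 or above. The lists run from a median of −0.40 for basement membrane genes at the bottom to 0.43 for cytokines at the top, and the 40 ribosomal protein genes lie within −0.30 and 0.33.

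Some basement membrane genes were lower with miR-140-5p. Of 19 measured collagens, laminins and linked proteins, 4 were lower and 1 was higher, against 1.57% and 1.53% over all genes, and the median was −0.40. LAMC1, the gamma chain of most laminins, read 192.8 and 601.1, a difference of −1.46. LAMA3, a chain of epithelial laminin, and COL18A1, the source of endostatin, both named after their values were seen, were at −1.45 and −1.13. COL4A1, the partner of COL4A2 that shares its promoter region, read 269.8 and 487.6, a difference of −0.68, which was much smaller than the −2.62 of COL4A2. LAMA5 and LAMB3 differed by 0.05 and 0.12.

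Interstitial matrix genes were on both sides. LOX, which crosslinks collagen and elastin, read 109.9 and 30.2, a difference of 2.03, and COL7A1, the anchoring fibril collagen, was at 1.37. PLOD1, a lysyl hydroxylase of collagen, was at −1.18. Of 15 integrin subunits none passed 1.0, and ITGB3 came closest at 0.97. Of 15 measured metalloproteases and ADAM proteases, ADAM8 alone passed 1.0, MMP14 was at 0.81, and MMP1 and MMP3 had only the bounds given above.

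The TGF-beta pathway was read as receptors and signal carriers on one list and response genes on another. Of 25 ligands, receptors and SMADs, 1 was lower and 1 higher. BMPR2, a type II receptor for bone morphogenetic proteins, was lower at −1.33 and ACVR2B, a type II activin receptor, higher at 1.46. SMAD2, SMAD3 and SMAD4, the signal carriers, lay between −0.18 and −0.13, and TGFBR2 at −0.75. Of 16 response genes, 4 were lower and 1 higher, against 1.57% and 1.53% over all genes. CCN2, ACTA2, CCN1 and ID2 were lower at −2.22, −1.72, −1.26 and −1.12, the last 2 named after their values were seen. TGFBI, a secreted matrix protein, was higher at 2.05 from 1081 and 292.6. IGFBP3 stood just under the threshold. The response genes thus lay on both sides.

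Small nucleolar RNAs of the H/ACA box and Cajal body classes guide the conversion of uridine to pseudouridine, or the modification of spliceosomal RNAs. Of 115 measured, 18 were lower with miR-140-5p by 1.0 or more and none was higher, against 1.57% and 1.53% of all genes. SNORA48 read 524.6 for miR-140-5p and 2740 for miR-140-3p, against mocks of 475.3 and 512.9, a difference of −2.25. SNORA62 read 136.8 and 634.3, a difference of −2.03, and SNORA80E 150.3 and 649.6, a difference of −1.93. All 18 lay further from 0 on the miR-140-3p array, where their ratios to mock ran from 0.36 to 1.48, than on the miR-140-5p array, where they ran from −0.55 to 0.45. The ratios on the miR-140-3p array were above 0 for all 18. Their mock differences lay between −0.27 and 0.15.

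C/D box RNAs, which guide the methylation of ribose, did not show this pattern. Of 121 measured, none passed 1.0, and the median was 0.06 against −0.18 for the H/ACA and Cajal body RNAs. Many of these RNAs are cut from introns of other genes, so the genes whose RefSeq span holds the 18 were also read. All 18 lay within such a gene, without regard to strand, and 17 such genes were measured, with differences from −0.45 to 0.33 and a median of 0.08. Some of the 18 lay within several such genes, while RPSA, the only one found around SNORA62 and SNORA6, had no value. EIF4A1, a translation factor whose introns hold SNORA48 and SNORA67, read 6277 and 6729, a difference of 0.03. SNHG12, a host transcript, and NOP56, a core protein of C/D box particles, were at 0.21 and 0.24, while SNORA44 and SNORA51 within them were at −1.92 and −1.44. The probe of an intronic RNA also matches the unspliced transcript of its host.

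Few genes of the cell cycle passed 1.0. Of 42 measured, 2 were lower and 1 was higher, against 1.57% and 1.53% over all genes, the median was −0.29 and 36 lay below 0. CCNE2, a cyclin of S phase entry, read 119.3 and 319.5, a difference of −1.24 that its second probe, at −0.28, did not share. RRM2, a subunit of ribonucleotide reductase, read 319.7 and 788.3, a difference of −1.11, with ratios of 0.02 and 0.85. The replication genes MCM2 to MCM7 lay between −0.41 and −0.23, which was larger than their mock differences of −0.08 to 0.12. UBE2C, 1 of 6 members above 0, was at 1.54, from 5045 and 1916. None of 19 CDK inhibitors and p53 targets passed 1.0.

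Lysosomal genes had a median of −0.15 over 43 members, with SCARB2 and CTSB, a cysteine protease, lower at −2.13 and −1.41 and IDS higher at 2.60. Among 25 genes of cholesterol synthesis and uptake, NCEH1 was lower and HMGCS1, which makes the precursor of mevalonate, higher from 89.2 and 35.5, and the median was −0.02. Of 21 NRF2 targets, PIR and NQO1, a quinone reductase at −1.07, were lower. HMOX1, heme oxygenase, read 12383 and 11726, a difference of 0.13. Of 26 MARCKS and actin-linked genes, TPM1, a tropomyosin, was lower at −1.67, with −1.57 at its second probe, and MARCKS higher.

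In the remaining lists few or no genes passed 1.0. The 40 ribosomal protein genes lay between −0.30 and 0.33, with none past 1.0. Of 17 genes of miRNA processing and silencing none passed 1.0. DICER1, which cuts the hairpin, was at −0.82 and AGO2, the slicing Argonaute, at 0.54. Of 18 let-7 target genes HMGA2 alone passed. Of 22 receptor tyrosine kinases, ROR1 was lower at −1.38 and FGFR3 only just higher than the threshold, from 44.1 and 23.9 beside a mock difference of 0.35. Of 26 interferon-stimulated genes, IFIT2 was lower at −1.18 from dim signals of 10.7 and 26.5 beside a mock difference of 0.38. Of 15 RAS family GTPases, RALA and RRAS2 passed in opposite directions, and HRAS and NRAS lay at 0.13 and 0.09. None of 16 epithelial and mesenchymal genes passed 1.0. Several of the calls on list members ended with other settings. Normexp with an offset of 50 ended those of COL7A1, PLOD1, BMPR2, ACTA2, CCNE2, NQO1, IFIT2, FGFR3 and HMGCS1, and the difference of loess ratios those of IL11, LOX, ACVR2B, RRM2 and ROR1.

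The cell line was checked against markers. Of 18 genes of a urothelial line, 7 were above background in both mocks, namely KRT7, KRT8, KRT18, VIM, CDH2, PPARG and UPK1A. Of the genes that define urothelium, PPARG read 106 and 113 and UPK1A 13.7 and 19.9 in the mocks, while GATA3, UPK1B, UPK2, UPK3A and KRT20 were not well above background. PAX8 and PAX2, which are better known from kidney, were above background at 373.3 and 532.9 in the mock of the miR-140-5p array. VIM read 18488 and 17785 in the transfectants and KRT18 10551 and 10103, differences of 0.07 and 0.09. KRT7 was at 0.72, from 1098 and 742.8, and PAX2 at −0.98, from 426.5 and 942.4. PTPRC, CD3E and VWF, markers of blood and endothelial cells, were above background in the mocks at dim signals of 10.3 to 13.5 on the miR-140-5p array.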

How the data were processed

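Mock RNA carried Cy3 and RNA of transfected cells Cy5, per the labels, without dye swaps and on 1 slide. The authors scanned the arrays with Feature Extraction 11.5.1.1, per the file headers, so the deposited values used here are linear spot intensities, not normalized: the mean of the spot and the median of the surrounding background, with GRCh37 coordinates. A deposited log10 ratio (red over green, from the software's processed signals) served as an alternative; the series table held the same values.

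Control spots and spots flagged as outliers (129 and 142) were dropped and the remaining spots averaged per probe. A probe entered when at least 0.5 of its spots were well above background in Cy5 on both arrays. Background-subtracted Cy5 was quantile-normalized between arrays on the log2 scale, with Python 3.11.15. Each gene was represented by its brightest probe. Over 282 probes with 10 spots, the median SD between spots was 0.067. Names were updated by accession for 14072 genes. Ratios to mock used normexp (offset 50) and loess in limma 3.58.1. For a gene seen on 1 array, the bound divides its signal by the dim signal or, if higher, by the dimmest signal that was well above background. A log2 difference of 1.0 counted as past the threshold. No p-value was computed. The calling was tested on simulated data, and alternatives covered background, normalization, filters, probe choice and threshold.

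The text names the 12 lowest and 12 highest genes with a symbol whose mock difference was under 0.5 times the Cy5 difference, PIR, and up to 3 members of each of 24 lists; others are named after their values were seen. The members and lists were chosen with earlier results of these data known, so the share of a list past the threshold is description only. Values of some genes that fall under this rule, or that the counts include, are not reported here.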

Additional observations from a re-analysis of the deposited data

How the results depend on the processing

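Of the 57 genes chosen by the naming rule, none changed sign under any setting that gave it a value, and 30 of the 50 past 1.0 passed it under every such setting. Genes named after their values were seen were not followed across settings. The counts moved by over 1.5 times under some. Lower and higher genes were 88 and 62 with normexp and an offset of 50, 156 and 127 without background correction, 75 and 40 by the difference of loess ratios, 759 and 728 by that of scanner ratios, 111 and 61 with signals of at least 100 on both arrays, and 62 and 87 at a threshold of 1.5. In the mock check they were 0 and 0 with normexp and an offset of 50 and without background correction, 10 and 5 with the processed signal, and 0 lower at 1.5. The spread of the Cy5 difference was 0.261 with normexp and an offset of 50 and 0.244 by loess ratios. Among list medians, integrin subunits went to 0.11 with normexp and an offset of 50, 0.12 without background correction, 0.11 by loess ratios and −0.12 with signals of at least 100. Ribosomal protein genes went to 0.18 with median centring. Cytokines went to 0.24 and basement membrane genes to −0.22 by loess ratios. With signals of at least 100, reported miR-140-3p targets changed sign to −0.06, interstitial matrix genes to −0.12, TGF-beta response genes to −0.06 and genes matching the miR-140-5p seed to −0.30. An offset of 50 draws dim genes together by construction, and the signal filter leaves fewer genes; the cause of the other shifts was not tested. The seed medians kept their signs under the other settings, including a match to bases 2 to 7 chosen after seeing the data. Searches of 3′UTRs and coding sequences were not run. No paired analysis was possible because each strand had 1 array, and leaving out a replicate was not possible for the same reason. Genes with signals under 20, where the mock SD was 0.245, are the least firmly measured.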
